A study of Mus musculus with 4 samples.

Results

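Propionylation of histone H3 at lysine 23 (H3K23 propionylation) was measured by ChIP-seq in 4 libraries from mouse heart. Described here is how far the response of this mark to TAC, the transverse aortic constriction that loads the left ventricle, depended on a diet without branched-chain amino acids (BCAA). All hearts came from male C57Bl/6J mice 12 weeks old, in 4 groups: the BCAA-free diet with TAC, the BCAA-free diet with sham surgery, the BCAA-control diet with TAC and the BCAA-control diet with sham surgery. Mice ate their diet for 4 days before surgery and for the 1 week until the hearts were taken. Each group had 1 library from pooled chromatin of 3 hearts. There was therefore no replicate error, and nothing below was tested. Whole hearts hold cardiomyocytes, fibroblasts, endothelial cells and leukocytes, and a higher or lower signal at the genes of a cell type cannot be told apart from more or fewer of those cells.

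The measure is a difference of ratios, computed for each of the 29210 regions of the study's merged table and for each of the 17640 genes it lists. The TAC ratio on a diet is the log2 of the TAC signal plus 1 over the sham signal plus 1. The difference is the BCAA-free TAC ratio minus the control TAC ratio. A positive difference therefore means that TAC went with relatively more signal on the BCAA-free diet, either because a gain was larger or because a loss was smaller. A difference is called past 1.5-fold when it exceeds 0.58 in size on the log2 scale, which sorts by size and tests nothing. All 29210 regions and all 17640 genes have a value, and the series holds no others. A gene takes the value of whichever of its listed regions has its middle closest to the start, and 11461 genes share that region with another gene, so that a value belongs to the region.

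Propionylation places a 3-carbon acyl group on a lysine, and it is laid down by acetyltransferases that use propionyl-CoA in place of acetyl-CoA. Isoleucine and valine, both branched-chain amino acids, are broken down in mitochondria to propionyl-CoA, whereas leucine gives acetyl-CoA and acetoacetate. In chromatin, histone acylation is typically found at the promoters of active genes. In a pressure-loaded heart, cardiomyocytes grow and lower their metabolic and contractile gene programmes, while macrophages and activated fibroblasts accumulate.

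Promoters of 5 genes are shown because their regions mark the patterns described below. Titin (Ttn), alpha myosin heavy chain (Myh6) and cardiac actin (Actc1) had a loss with TAC that was smaller on the BCAA-free diet. Tcf21, a transcription factor of cardiac fibroblasts, had opposite ratios on the 2 diets. Arhgap22, which encodes a GTPase-activating protein for Rac, had a gain on both diets. Each sequence is the 150 bases before the RefSeq transcription start, on the coding strand of GRCm38.p6, and each start lies inside the gene's region.
Ttn: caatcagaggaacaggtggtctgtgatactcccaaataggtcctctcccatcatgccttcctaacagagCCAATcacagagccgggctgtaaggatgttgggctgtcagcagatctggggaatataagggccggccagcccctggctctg
Myh6: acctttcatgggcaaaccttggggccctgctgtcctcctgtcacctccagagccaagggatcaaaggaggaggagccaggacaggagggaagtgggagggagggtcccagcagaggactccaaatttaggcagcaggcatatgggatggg
Actc1: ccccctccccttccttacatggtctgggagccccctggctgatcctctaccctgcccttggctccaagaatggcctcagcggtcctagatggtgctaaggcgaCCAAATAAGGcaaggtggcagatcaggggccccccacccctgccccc
Tcf21: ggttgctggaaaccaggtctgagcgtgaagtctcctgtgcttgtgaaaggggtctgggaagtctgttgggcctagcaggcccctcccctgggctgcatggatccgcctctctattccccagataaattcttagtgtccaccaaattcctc
Arhgap22: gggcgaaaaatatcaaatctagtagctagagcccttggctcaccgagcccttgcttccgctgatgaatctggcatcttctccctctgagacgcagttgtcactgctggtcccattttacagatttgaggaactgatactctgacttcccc
These lie at chr2:76982548-76982697 (Ttn, minus strand), chr14:54966608-54966757 (Myh6, minus strand), chr2:114052876-114053025 (Actc1, minus strand), chr10:22820144-22820293 (Tcf21, minus strand) and chr14:33216673-33216822 (Arhgap22, plus strand).

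Capitals mark the letters found of 5 motifs that were searched on both strands. These were the TATA box (TATAAA), the site of MEF2 factors (CTAAAAATA), that of GATA factors (AGATAAG), the CCAAT box (spelled as its name) and the CArG box of serum response factor. A CCAAT box begins 81 bases before the Ttn start and a CArG box 47 bases before the Actc1 start. Over the 250 bases before the start of all 32851 RefSeq promoters, 33.8% held a CCAAT box and 1.47% a CArG box. The ranking by difference was limited to 3224 promoters of genes with their region at the start and a signal above the median. Of these, 36.2% had a CCAAT box and 1.24% a CArG box. In the tenth with the highest difference (324 promoters), 36.4% had a CCAAT box and 2.16% a CArG box, against 43.7% and 2.79% in the tenth with the lowest difference (323 promoters). Overlaps between motifs were not removed, and a match describes letters, not binding.

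The libraries were close in depth. The median region had 199 estimated tags in BCAA-free TAC, 205 in BCAA-free sham, 201 in control TAC and 198 in control sham, which gives a median counting error of 0.178 (SE) for a difference on the log2 scale. The median signal was 6.80 in BCAA-free TAC, 7.10 in BCAA-free sham, 6.95 in control TAC and 6.89 in control sham. The sources used here do not give the scaling between libraries, so the median difference of −0.08 over all regions is a baseline and not a result. The same median over genes was −0.07. Below, gene lists are set against it.

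Most regions responded to TAC within 1.5-fold of each other on the 2 diets. The difference lay between −0.54 and 0.43 for the middle 90% of regions, and 27425 regions (93.9%) did not pass 1.5-fold. Past 1.5-fold, 634 regions (2.17%) had a higher and 1151 (3.94%) a lower difference. This split followed the scaling: it was 863 higher and 783 lower with equal library medians, 842 and 745 after quantile normalisation and 1111 and 602 with the trend over signal removed. The regions nearest to the limit had differences of 0.585028 and −0.58501 among those past it and of 0.584696 and −0.58488 among those short of it. Over all regions the SD of the difference was 0.299, against 0.21 from counting error alone.

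The response to TAC was narrower on the BCAA-free diet. The SD of the TAC ratio over regions was 0.262 on the BCAA-free diet and 0.34 on the control diet, a quotient of 0.772. It was 0.749 among regions with a signal above the median and 0.691 among the 1594 regions of at least 30 kb, where counting error is smallest. Past 1.5-fold, TAC signal was above sham in 413 regions (1.41%) and below it in 693 (2.37%) on the BCAA-free diet, against 1275 (4.36%) above and 1551 (5.31%) below on the control diet. Over genes, 150 (0.85%) were higher and 120 (0.68%) lower in BCAA-free hearts, and 498 (2.82%) higher and 371 (2.1%) lower in control hearts. Of the 6 possible pairs of libraries, the 2 TAC libraries were the closest, with an SD of the log2 ratio of 0.224. The next were BCAA-free TAC over BCAA-free sham (0.262) and BCAA-free sham over control sham (0.267), and control TAC over control sham was the widest (0.34). With 1 pool per group, a narrower response and a control library that stands apart cannot be told apart.

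Regions that lose or gain the mark were chosen by the mean of both TAC ratios. Both diets enter this mean with equal weight, but the control ratio varies more and so moves it more. Of the 502 regions whose mean ratio was higher in TAC past 1.5-fold, the median TAC ratio was 0.58 on the BCAA-free diet and 0.76 on the control diet. In 41 of these regions the gain was smaller on the BCAA-free diet by more than 1.5-fold, in 450 the diets lay within 1.5-fold, and in 11 the gain was larger. Of the 637 regions whose mean ratio was lower, the median was −0.59 on the BCAA-free diet and −0.78 on the control diet, with 65 smaller, 556 within 1.5-fold and 16 larger losses. In direction alone, 359 of the gains (71.5%) and 475 of the losses (74.6%) were smaller on the BCAA-free diet. These medians and shares restate the narrower spread and give it no further support.

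**Figure D1:**
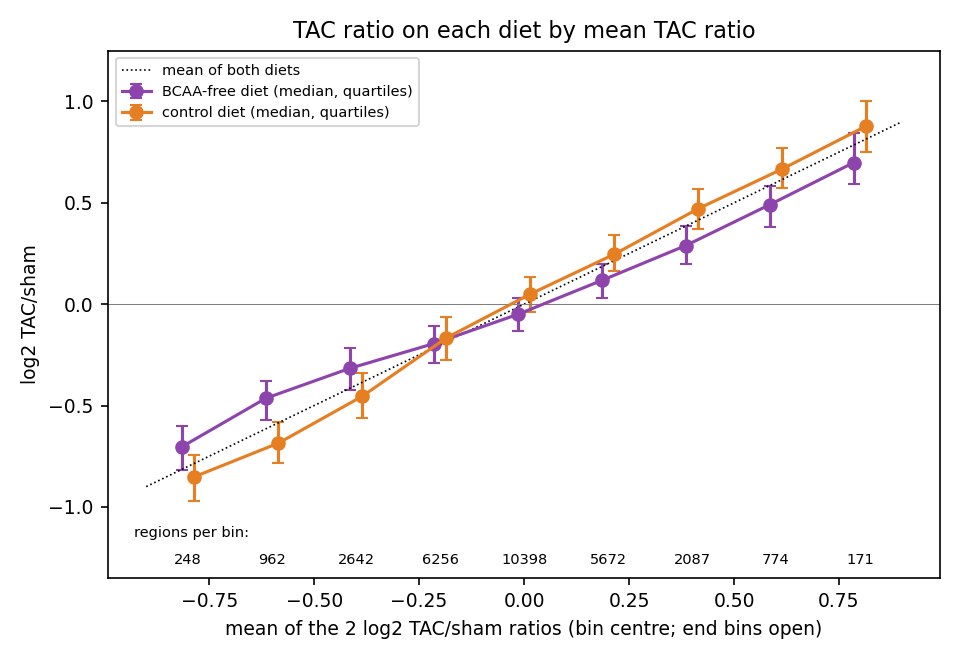
Median TAC ratio (log2 TAC/sham, y axis) on the BCAA-free diet (purple) and the control diet (orange) for regions grouped by the mean of both ratios (x axis, log2); bars are quartiles over regions and numbers are regions per bin. The BCAA-free line is flatter, which restates its narrower spread. In the bin centred at 0.6 the medians are 0.49 on the BCAA-free and 0.67 on the control diet. In the bin centred at −0.6 they are −0.46 on the BCAA-free and −0.69 on the control diet.

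The regions past 1.5-fold were short and lay away from promoters. Those with a higher difference had a median length of 2500 bases and 61.2 estimated tags per library, and those with a lower difference 3000 bases and 70.2 tags, against 6400 bases and 200.9 tags for all regions. A promoter lay in 15.3% of the higher and 21.5% of the lower ones, against 42.9% of all regions. Among the 7303 shortest regions 6.42% were higher and 10.7% lower, and among the 7303 longest 0.068% and 0.205%. At promoters with a CpG island the shares were 0.365% and 1.01%.

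In the 634 regions with a higher difference, the median TAC ratio was 0.12 on the BCAA-free diet and −0.64 on the control diet, and in 348 of them (54.9%) the control sham library was the one farthest from the other 3, against 31.9% of all regions. A peak had been called there in BCAA-free TAC for 49.5%, in BCAA-free sham for 30.8%, in control TAC for 16.7% and in control sham for 83.4% of regions. Over all regions these shares were 78.3% in BCAA-free TAC, 82.0% in BCAA-free sham, 78.8% in control TAC and 77.1% in control sham. In the 1151 regions with a lower difference, the medians were −0.31 on the BCAA-free diet and 0.42 on the control diet. The library farthest from the others was BCAA-free TAC in 105 of these, BCAA-free sham in 385, control TAC in 340 and control sham in 321, so that no single library held most of them. Over all regions the shares were 15.9% for BCAA-free TAC, 24.4% for BCAA-free sham, 27.8% for control TAC and 31.9% for control sham. A peak was called in all 4 libraries for 12.0% of the higher and 16.1% of the lower regions, against 61.3% of all regions. Both sets were picked by their difference, so the peak calls and the farthest library partly restate that choice.

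Genes of the sarcomere, the contractile unit of cardiomyocytes, had a loss with TAC that was smaller on the BCAA-free diet. The 31 measured genes of the list had a median TAC ratio of −0.24 on the BCAA-free diet and −0.40 on the control diet. Their median difference was 0.18, against −0.07 for all genes, and 26 of 31 lay above that of all genes. The ratio was smaller in size on the BCAA-free diet for 28 of 31 genes, against 10440 of 17640 genes. Past 1.5-fold, 2 genes had a higher and 0 a lower difference, beside 171 (0.969%) and 338 (1.92%) of all genes. Counts past 1.5-fold in the lists below stand beside these same shares, and 0 in a list of this size says little. With the 12 genes that are alone in their region, the median difference was 0.0421, against −0.0719 for all such genes. This pattern of the list was known before the list was drawn up.

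Titin, the giant protein that spans from Z-disc to M-band, had a signal of 10.01 in TAC and 12.8 in sham on the BCAA-free diet, and of 7.70 in TAC and 15.4 in sham on the control diet. The 2 control libraries were thus the extremes, with both BCAA-free libraries between them. Its TAC ratio was −0.33 on the BCAA-free diet and −0.92 on the control diet, a difference of 0.59 (95% counting interval 0.29 to 0.88). Such intervals cover counting error only, not variation between hearts or pools. All 4 of the regions listed for Ttn had a difference above the median of all regions.

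Myh6, the main myosin motor of the adult mouse ventricle, had a signal of 9.48 in TAC and 10.7 in sham on the BCAA-free diet, and of 8.28 in TAC and 14.9 in sham on the control diet. The order of the libraries was that of Ttn, and the difference was 0.62 (0.46 to 0.78). Its region (chromosome 14, 54955600 to 54976999) also lists Myh7. The region nearest to the start of Myh7, the fetal myosin isoform, had 5.18 in TAC and 6.31 in sham on the BCAA-free diet, and 4.53 in TAC and 7.27 in sham on the control diet, a difference of 0.34 (0.14 to 0.54), which was 0.00613 by peak height. Actc1 had 6.95 in TAC and 10.7 in sham on the BCAA-free diet, and 6.81 in TAC and 13.5 in sham on the control diet. Both TAC libraries were thus nearly level for Actc1, the sham libraries were apart, and the difference was 0.34 (0.12 to 0.56).

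Other sarcomere genes with a high difference were the M-band gene Myom2 (0.53), the titin-capping gene Tcap (0.47) and the Z-disc gene Ldb3 (0.43). The list was not uniform. Tropomyosin Tpm1 had 0.02 and troponin C Tnnc1 −0.01, while troponin I Tnni3 had −0.26 (−0.64 to 0.13), the leiomodin gene Lmod2 −0.27 (−0.75 to 0.21; 0.16 with its region of highest signal) and the atrial light chain gene Myl4 −0.28 (−0.50 to −0.06), from −0.06 on the BCAA-free diet and 0.22 on the control diet.

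**Figure D2:**
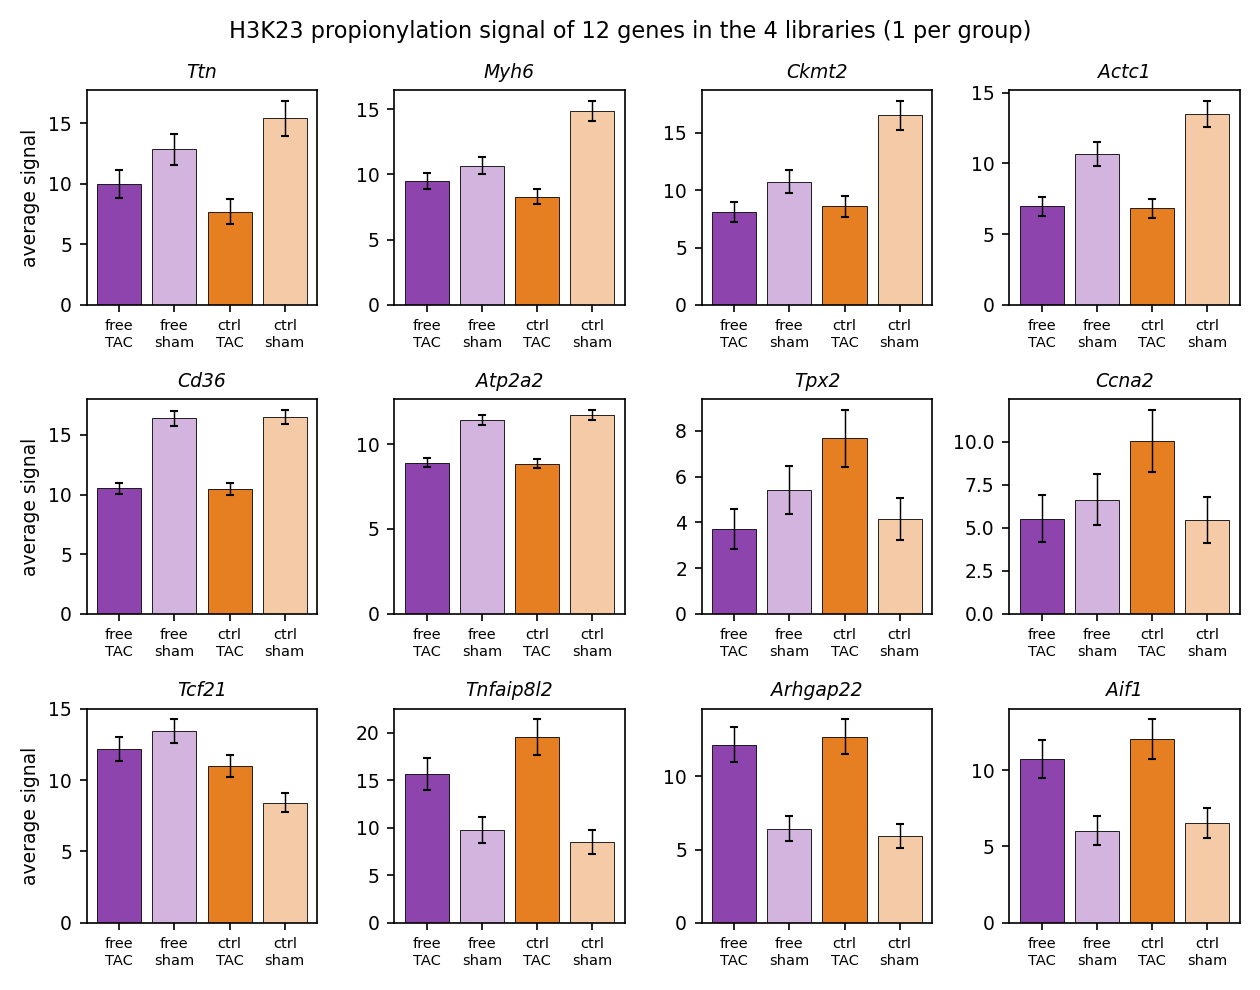
Average signal (y axis, linear, from 0) of the region representing each of 12 genes in the 4 libraries, BCAA-free (free) TAC and sham left of control diet (ctrl) TAC and sham; each bar is 1 library and error bars are 95% intervals from counting error only. For Ttn and Myh6 the 2 BCAA-free bars lie between the control bars, for Cd36 and Atp2a2 the TAC to sham step is alike on both diets, and for Tpx2 and Ccna2 control TAC is the highest bar.

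Genes of calcium cycling and excitability showed the same order of medians. The 25 measured genes had a median TAC ratio of −0.20 on the BCAA-free diet and −0.46 on the control diet, and 22 of 25 differences lay above the median of all genes, with a list median of 0.18 and 0 genes past 1.5-fold. The differences were 0.52 (0.35 to 0.70) for the potassium channel gene Kcnh2, whose region also lists Nos3, 0.29 for calsequestrin Casq2 and 0.24 (−0.14 to 0.61) for the ryanodine receptor gene Ryr2. All 7 regions listed for Ryr2 lay above the median of all regions, but by peak height its difference was −0.42. The calcium pump gene Atp2a2, in contrast, had 8.90 in TAC and 11.4 in sham on the BCAA-free diet, and 8.85 in TAC and 11.7 in sham on the control diet. Its loss was alike on both diets, with a difference of 0.04 (−0.04 to 0.11). Jph2, which ties the sarcoplasmic reticulum to the cell membrane, had −0.14 (−0.23 to −0.05). Its loss was larger on the BCAA-free diet as computed, but this interval includes the median of all genes, −0.07. The kinase gene Camk2d had −0.18 (−0.28 to −0.08), from −0.19 on the BCAA-free diet and −0.01 on the control diet. Of its 6 regions, 4 lay above the median of all regions. By peak height Camk2d had 0.18.

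Among other cardiomyocyte lists, cardiac transcription factors had a median TAC ratio of −0.20 on the BCAA-free diet and −0.31 on the control diet, with 19 of 22 differences above the median of all genes. Their median difference was 0.11. The lipid-sensing receptor gene Ppara had 0.43 (0.22 to 0.64), with all 6 of its regions above the median of all regions (−0.0354 with its region of highest signal), while Mef2a had −0.21 and Tbx2 −0.21. Intercalated disc genes had a median difference of 0.03 (13 of 16 above), from Ank3 at 0.53 to Ank2 at −0.46, both ankyrins that anchor membrane proteins. Fetal and hypertrophy genes had 0.08 (11 of 16 above), with the stress-induced gene Ankrd1 at 0.52 and the growth factor gene Tgfb2 at −0.36. In these 3 lists 0 genes passed 1.5-fold.

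Genes of fatty acid oxidation and of the tricarboxylic acid cycle mostly lost signal with TAC to a similar extent on both diets. The 32 genes of fatty acid oxidation had a median TAC ratio of −0.24 on the BCAA-free diet and −0.29 on the control diet, a median difference of 0.01, and 24 lay above the median of all genes. The fatty acid transporter gene Cd36 had 10.5 in TAC and 16.4 in sham on the BCAA-free diet, and 10.5 in TAC and 16.5 in sham on the control diet. Its libraries fell into a TAC and a sham level whatever the diet, with a difference of 0.01 (−0.10 to 0.13). Decr1, needed for unsaturated fatty acids, had −0.60 on both diets, and Pdk4, which restrains pyruvate oxidation, −0.50 on the BCAA-free diet and −0.56 on the control diet. The list also held genes with a smaller loss on the BCAA-free diet, such as the fatty acid binding protein gene Fabp3 at −0.41 against −0.80 on the control diet.

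Oxidative phosphorylation genes had a median TAC ratio of −0.08 on the BCAA-free diet and −0.16 on the control diet. Their median difference was 0.06, and 38 of 45 lay above the median of all genes. The muscle isoform gene Cox6a2 had the highest difference, 0.57 (0.27 to 0.88), in a region that also lists Itgad, an integrin gene of macrophages. Only 6 of the 45 genes were alone in their region, and with those alone the list median was 0.02. The tricarboxylic acid cycle list had a median TAC ratio of −0.17 on the BCAA-free diet and −0.19 on the control diet. Its median difference was 0.03 (18 of 25 above), with the fumarase gene Fh1 lowest at −0.45. Glycolysis genes had a median TAC ratio of −0.04 on the BCAA-free diet and 0.04 on the control diet. Their median difference was −0.00 (16 of 24 above). The regulatory kinase gene Pfkfb1 had 5.80 in TAC and 7.08 in sham on the BCAA-free diet. On the control diet it had 4.99 in TAC and 9.54 in sham, a difference of 0.57 (0.32 to 0.81). In these lists 0 genes passed 1.5-fold.

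The pathways that the diet feeds showed small differences. The 24 genes of BCAA breakdown had a median TAC ratio of −0.05 on the BCAA-free diet and −0.12 on the control diet, a median difference of 0.10, with 19 above the median of all genes and 0 past 1.5-fold. The mitochondrial transaminase gene Bcat2, which starts the pathway in muscle, had 13.0 in TAC and 13.5 in sham on the BCAA-free diet, and 10.9 in TAC and 13.7 in sham on the control diet, a difference of 0.25 (0.04 to 0.45). Control TAC was thus the low library for Bcat2. The methylcrotonyl-CoA carboxylase gene Mccc1, of leucine breakdown, had 0.40 (0.01 to 0.78), and −0.0434 by peak height. Bckdhb, a subunit of the dehydrogenase that commits the carbon skeletons to oxidation, had 0.26 (−0.21 to 0.73). Of its 7 regions 2 lay above the median of all regions, its median over regions was −0.15, and by peak height its difference was −0.25. The cytosolic transaminase gene Bcat1 had −0.23 (−0.70 to 0.24), and 0.0825 by peak height.

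The list of propionyl-CoA metabolism, which also holds genes of neighbouring steps, had a median TAC ratio of −0.17 on the BCAA-free diet and −0.10 on the control diet. Of its 23 differences, 10 lay above the median of all genes, with a list median of −0.09. Past 1.5-fold, 0 were higher and 2 (8.70%) lower, beside 0.969% and 1.92% of all genes. Mmab, an adenosyltransferase of vitamin B12, had 8.47 in TAC and 10.9 in sham on the BCAA-free diet, and 9.42 in TAC and 7.36 in sham on the control diet, a difference of −0.64 (−1.05 to −0.23), in a region that also lists Mvk. Acsf3, a mitochondrial malonyl-CoA synthetase, had −0.62 (−1.14 to −0.11). In both, BCAA-free sham was the highest and control sham the lowest library. The propionyl-CoA carboxylase subunit genes had −0.18 (−0.57 to 0.21, Pcca) and −0.08 (−0.37 to 0.20, Pccb), within their counting intervals of 0. Pcca had 0.32 with its region of highest signal, and Pccb 0.18 by peak height.

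Lists of amino acid sensing lay near the median of all genes. The median difference was −0.03 for the response to amino acid starvation (13 of 24 above that median), −0.04 for mTORC1 and leucine sensing (17 of 31 above), −0.05 for enzymes of histone acylation (20 of 35 above) and −0.12 for amino acid transport (5 of 12 above), with 0 genes past 1.5-fold. At the edges, the lysosomal regulator gene Tfeb had 0.34 (0.08 to 0.59), and −0.12 with its region of highest signal. The Rag GTPase gene Rraga had −0.44 (−0.71 to −0.17) in a region that also lists Haus6 and Scarna8. Among the acyltransferases, Kat8 had 0.36 (0.01 to 0.71) in a region that also lists Bckdk, and Kat2a −0.45 (−0.71 to −0.18), in a region whose middle lies 9168 bases from its start. Kat8 had −0.0415 by peak height, and Kat2a 0.0352 with its region of highest signal. The glutamine transporter gene Slc1a5 had −0.34 (−0.55 to −0.12) and Slc7a5, a transporter gene of leucine and other large amino acids, 0.07 (−0.15 to 0.29).

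**Figure D3:**
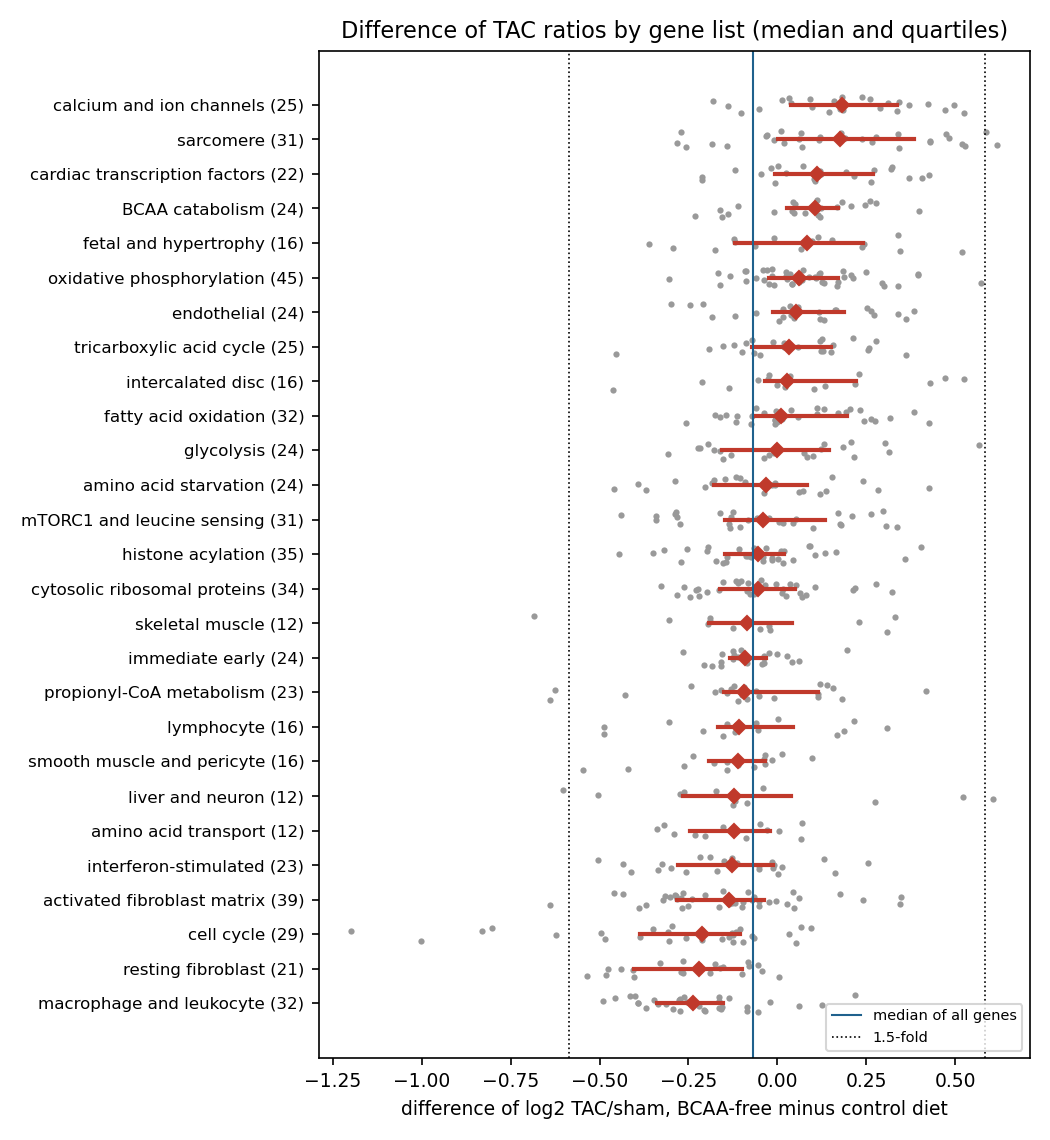
Difference of TAC ratios (log2, BCAA-free minus control diet, x axis) for the measured genes of 27 lists; grey points are genes, red diamonds list medians and red bars the quartiles of the list, with the number measured in brackets. Cardiomyocyte lists lie right of the median of all genes (blue line, −0.07) and macrophage, fibroblast and cell cycle lists left of it, while the dotted 1.5-fold lines enclose nearly all points.

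Macrophage and leukocyte genes gained signal with TAC on both diets, and less on the BCAA-free diet. The 32 measured genes had a median TAC ratio of 0.47 on the BCAA-free diet and 0.62 on the control diet. Of these, 30 (93.8%) were higher in TAC on both diets, against 33.0% of all genes. The ratio was smaller in size on the BCAA-free diet for 29 of 32, against 10440 of 17640 genes. The median difference was −0.24, with 5 of 32 above the median of all genes and 0 past 1.5-fold in either direction. Between diets, the list had a median log2 ratio of −0.22 in the TAC libraries and −0.03 in the sham libraries, so that the gap lay between the TAC libraries. All genes had −0.04 in TAC and 0.04 in sham. A list close to this one had shown the same difference in earlier work on these data.

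Fcgr1, a macrophage receptor for IgG, had 7.32 in TAC and 4.36 in sham on the BCAA-free diet, and 9.25 in TAC and 3.70 in sham on the control diet, a difference of −0.49 (−0.94 to −0.04). Tyrobp, an adaptor of myeloid receptors, had 11.5 in TAC and 7.88 in sham on the BCAA-free diet, and 15.6 in TAC and 7.94 in sham on the control diet, a difference of −0.39 (−0.60 to −0.19) in a region that also lists Hcst. In both genes the sham libraries were close and control TAC stood highest. The complement genes C1qa, C1qb and C1qc share 1 region, with −0.16 (−0.29 to −0.04), and the chemokine receptor gene Ccr2 of recruited monocytes had −0.31 (−0.64 to 0.01), and 0.0875 by peak height. Above the median of all genes lay the fractalkine receptor gene Cx3cr1 at 0.13 (−0.19 to 0.45), the actin-bundling gene Lcp1 at 0.22 (−0.10 to 0.53), Laptm5 at 0.06, Coro1a at −0.02 and Aif1 at −0.06. With the region of highest signal, Cx3cr1 had −0.29 and Lcp1 −0.49.

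At gene starts with a signal above the median, 16 genes had a mean gain with TAC past 1.5-fold. Of these, 13 gained less on the BCAA-free diet, and in all 16 the diets lay within 1.5-fold. The genes named next were picked by the size of the mean gain or by near-equal ratios. Tnfaip8l2, an inhibitor of immune signalling, had 15.7 in TAC and 9.76 in sham on the BCAA-free diet, and 19.6 in TAC and 8.49 in sham on the control diet, a difference of −0.49 (−0.82 to −0.16). Clec4a3, a C-type lectin of myeloid cells, had −0.42 (−0.85 to 0.02). Arhgap22 had 12.2 in TAC and 6.43 in sham on the BCAA-free diet, and 12.7 in TAC and 5.94 in sham on the control diet, and its difference of −0.16 (−0.46 to 0.15) was inside counting error. Iqgap2, a scaffold of the cytoskeleton, had 0.76 on the BCAA-free diet and 0.75 on the control diet, a difference of 0.01 (−0.30 to 0.32). Rnf180, a ubiquitin ligase gene picked for its near-equal ratios, had 0.66 on the BCAA-free diet and 0.74 on the control diet. Lymphocyte genes had a median difference of −0.11 (7 of 16 above the median of all genes) and interferon-stimulated genes −0.13 (10 of 23 above), with 0 past 1.5-fold.

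Most resting fibroblast genes were lower in TAC on the BCAA-free diet and higher on the control diet. The 21 resting fibroblast genes had a median TAC ratio of −0.12 on the BCAA-free diet and 0.13 on the control diet. Of these, 13 (61.9%) had this pattern and 0 the opposite one, against 4662 (26.4%) and 1760 (9.98%) of all genes. With equal library medians these counts were 11 and 0, against 17.8% and 16.2% of all genes. The median difference was −0.22, with 3 of 21 above the median of all genes and 0 past 1.5-fold. Between diets, the list had a median log2 ratio of 0.07 in TAC and 0.33 in sham, so here the gap lay between the sham libraries.

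Tcf21 had 12.2 in TAC and 13.4 in sham on the BCAA-free diet, and 11.0 in TAC and 8.41 in sham on the control diet. Control sham was the low library, and the difference was −0.48 (−0.67 to −0.29). The same order of libraries held for the collagen-binding proteoglycan genes Dcn and Lum and the collagen receptor gene Ddr2. Dcn had 12.6 in TAC and 14.0 in sham on the BCAA-free diet, and 9.76 in TAC and 8.45 in sham on the control diet. The differences were −0.33 (−0.48 to −0.18) for Dcn, −0.41 (−0.71 to −0.10) for Lum and −0.44 (−0.59 to −0.29) for Ddr2. Vim, an intermediate filament gene of many mesenchymal cells, had −0.04 (0.45 by peak height), and Ly6a 0.01.

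Matrix genes of activated fibroblasts had a median TAC ratio of 0.08 on the BCAA-free diet and 0.24 on the control diet, with 13 of 39 differences above the median of all genes and a list median of −0.14. Of the 39, 25 (64.1%) were higher in TAC on both diets, against 33.0% of all genes, and 13 (33.3%) only on the control diet, near the 26.4% of all genes. With equal library medians these were 30 on both and 8 only on the control diet. Postn, a matricellular protein gene of activated fibroblasts, had 7.65 in TAC and 5.71 in sham on the BCAA-free diet, and 7.96 in TAC and 4.72 in sham on the control diet, a difference of −0.28 (−0.61 to 0.05). The collagen genes were spread out, with −0.07 (−0.21 to 0.06) for Col1a1, −0.32 (−0.53 to −0.10) for Col3a1 and −0.43 (−0.66 to −0.21) for Col14a1. The 1 gene past 1.5-fold was the crosslinking enzyme gene Loxl2 at −0.64 (−1.03 to −0.25). Its region lies far inside the gene and also lists R3hcc1. On the other side were Cthrc1 at 0.35 (−0.23 to 0.93) and the protease inhibitor gene Timp1 at 0.35 (−0.27 to 0.96), both with wide intervals, and Timp1 had −0.0996 with its region of highest signal.

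Endothelial genes had a median TAC ratio of −0.05 on the BCAA-free diet and −0.18 on the control diet, a median difference of 0.05, with 19 of 24 above the median of all genes and 0 past 1.5-fold. The VEGF receptor gene Flt1 had 9.71 in TAC and 9.22 in sham on the BCAA-free diet, and 8.37 in TAC and 10.7 in sham on the control diet, a difference of 0.38 (0.20 to 0.57), and all 5 of its regions lay above the median of all regions. The transcription factor gene Sox17 had 0.36 (0.13 to 0.60), with control sham as the high library. Tek, the angiopoietin receptor gene, had −0.30 (−0.45 to −0.14). Smooth muscle and pericyte genes had a median difference of −0.11 (7 of 16 above), with the pericyte gene Rgs5 at −0.55 (−0.85 to −0.24).

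The cell cycle list held more members past 1.5-fold on the lower side than any of the other lists. Its 29 genes had a median TAC ratio of 0.06 on the BCAA-free diet and 0.31 on the control diet, and 5 of 29 differences lay above the median of all genes. The median difference was −0.21, and 0 genes were higher and 5 (17.2%) lower past 1.5-fold, beside 1.92% of all genes. Of the 29, 2 (6.90%) were higher in TAC only on the BCAA-free diet and 11 (37.9%) only on the control diet, beside 9.98% and 26.4% of all genes. With equal library medians these were 2 and 8, beside 16.2% and 17.8% of all genes.

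Tpx2, which organises the mitotic spindle, had 3.72 in TAC and 5.41 in sham on the BCAA-free diet, and 7.67 in TAC and 4.13 in sham on the control diet, a difference of −1.20 (−1.69 to −0.71) on estimated tags of 69.7 in BCAA-free TAC, 101.4 in BCAA-free sham, 143.7 in control TAC and 77.3 in control sham. Its region (chromosome 2, 152846200 to 152850399) is 1 of 3 listed for the gene, and 1 of these 3 lay above the median of all regions. With the region of highest signal taken for the gene instead, the difference was 0.0732. Cyclin A2 (Ccna2) had 5.54 in TAC and 6.65 in sham on the BCAA-free diet, and 10.1 in TAC and 5.46 in sham on the control diet, a difference of −1.001 (−1.56 to −0.44) in a region that also lists Exosc9 and Bbs7. In both genes control TAC was the high library. The others past 1.5-fold were cyclin B1 (Ccnb1, −0.83), the spindle checkpoint kinase gene Bub1 (−0.80) and the ribonucleotide reductase gene Rrm2 (−0.62). The 2 highest differences of the list were those of Mcm2 and cyclin D1 (Ccnd1), and 4 of 29 lay above 0. Mcm2, of replication licensing, had 0.10 (−0.09 to 0.28; −0.47 by peak height). Ccnd1, of the G1 phase, had 0.07 (−0.08 to 0.21). The proliferation marker Mki67 had −0.30 (−0.55 to −0.04).

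**Figure D4:**
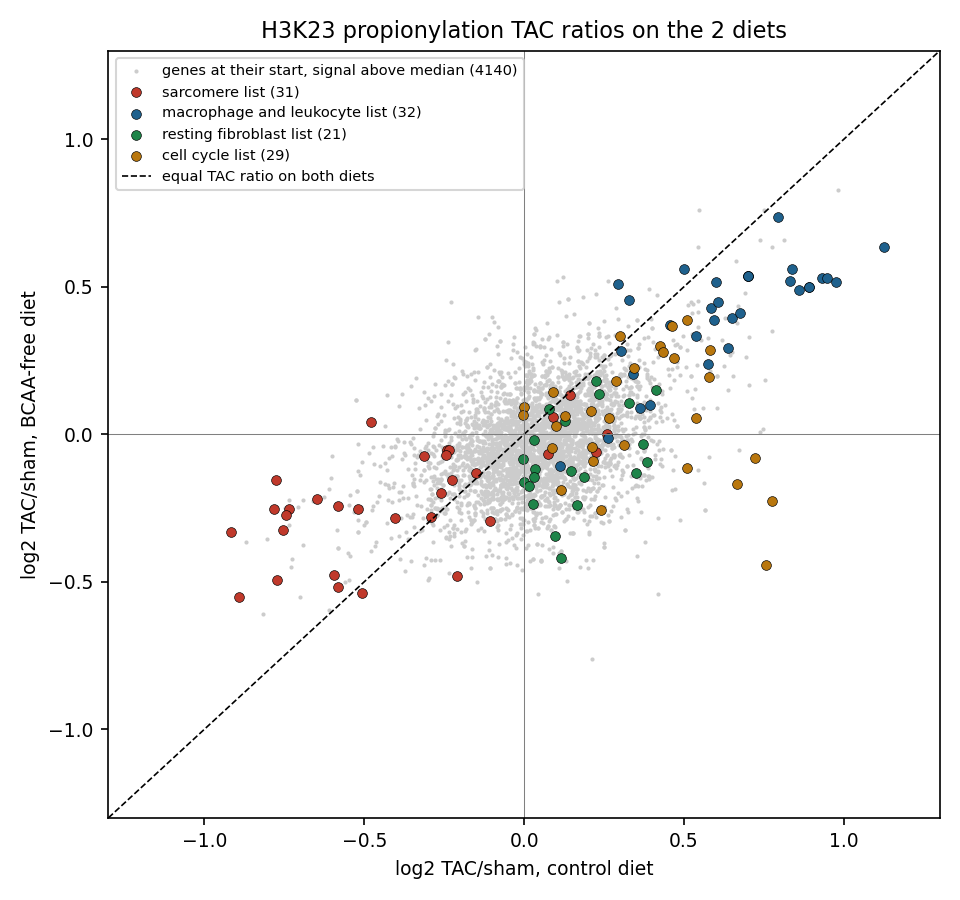
TAC ratio on the BCAA-free diet (y axis, log2 TAC/sham) against that on the control diet (x axis) for 4140 genes whose region lies at the start with a signal above the median (grey) and for all measured genes of 4 lists (coloured). Sarcomere genes lie mostly above the dashed line of equal ratios at the lower left, macrophage genes mostly below it at the upper right, and 13 of 21 resting fibroblast genes in the lower right quadrant.

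As background, the median difference was −0.09 for immediate early genes (10 of 24 above the median of all genes), −0.06 for ribosomal proteins (18 of 34 above), −0.09 for skeletal muscle genes (6 of 12 above) and −0.12 for liver and neuron genes (4 of 12 above). In the skeletal muscle list 1 gene was lower past 1.5-fold, the slow troponin gene Tnni1 at −0.69 (−1.12 to −0.25). In the liver and neuron list 1 was higher (Stmn2, 0.61, −0.02 to 1.23) and 1 lower (Gria1, −0.60, −1.17 to −0.03). Genes that adult hearts hardly use thus also reached 1.5-fold, in both directions.

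Signal was also summed over markers of the cell types named above. Several of these markers are members of the lists above, so the sums are no independent check. Summed over 8 cardiomyocyte markers, the signal was 66.0 in TAC and 79.7 in sham on the BCAA-free diet, and 57.2 in TAC and 87.7 in sham on the control diet. For 11 of 12 leukocyte markers (Adgre1 is listed with no region) it was 114 in TAC and 86.5 in sham on the BCAA-free diet, and 136 in TAC and 89.4 in sham on the control diet. For 9 fibroblast markers it was 84.2 in TAC and 87.4 in sham on the BCAA-free diet, and 74.1 in TAC and 60.7 in sham on the control diet. For 9 endothelial markers it was 79.1 in TAC and 82.5 in sham on the BCAA-free diet. On the control diet these had 84.1 in TAC and 93.9 in sham. For 8 smooth muscle and pericyte markers it was 63.1 in TAC and 64.8 in sham on the BCAA-free diet. On the control diet these had 65.0 in TAC and 59.4 in sham. Leukocyte and cardiomyocyte sums thus moved in opposite directions with TAC on both diets, with the wider steps on the control diet. The part of cell numbers in the differences of the lists was not tested. Of the erythroid markers 1 of 5 and of the liver markers 1 of 4 had a region.

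Among the 4140 genes whose region lies at the start with a signal above the median, 5 (0.121%) had a higher and 31 (0.749%) a lower difference past 1.5-fold. The highest was Nr0b2, a repressor of nuclear receptors, with 11.7 in TAC and 8.29 in sham on the BCAA-free diet, and 10.1 in TAC and 12.0 in sham on the control diet, a difference of 0.68 (0.19 to 1.17). BCAA-free sham was its low library. It was followed by Klhdc3 and Mea1, which share a region (0.64, 0.37 to 0.92), and by Myh6 and Ttn. Then came the actin-related gene Actr3b (0.56), Rab3gap1, which acts on small GTPases (0.55), the zinc finger gene Zbtb14 (0.54), the thromboxane receptor gene Tbxa2r (0.53) and the autophagy receptor gene Calcoco1 (0.53). For Klhdc3 and Mea1, Actr3b, Tbxa2r and Calcoco1, as for Myh6 and Ttn, control sham was the highest library. It was also the highest for Nr0b2, though close to BCAA-free TAC. For Rab3gap1 and Zbtb14 the highest was BCAA-free TAC.

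The lowest of these genes was Ccdc83 at −0.97 (−1.75 to −0.20), in a region of 1000 bases where BCAA-free sham was high. Lipo1 had −0.96 (−2.11 to 0.19) in a region of 400 bases, and its interval includes 0. Ccdc38 and Amdhd1, which share a region, had −0.82 (−1.29 to −0.35) and the zinc finger gene Zfp560 −0.78 (−1.22 to −0.33). Maoa, which encodes monoamine oxidase A and breaks down noradrenaline and serotonin, had 7.14 in TAC and 9.85 in sham on the BCAA-free diet, and 10.04 in TAC and 7.64 in sham on the control diet, a difference of −0.77 (−1.24 to −0.29). The libraries were crossed, with TAC low on the BCAA-free diet and high on the control diet. Tsta3, of GDP-fucose synthesis, had −0.75 (−1.27 to −0.22), and the translation factor gene Mcts1 −0.73 (−1.24 to −0.21), which was 0.0069 by peak height. The spindle gene Ckap2l and the replication-linked protease gene Fam111a were alike: Fam111a had 8.60 in TAC and 8.55 in sham on the BCAA-free diet, and 11.3 in TAC and 6.37 in sham on the control diet. Their TAC ratios were 0.02 and 0.01 on the BCAA-free diet, against 0.75 and 0.74 on the control diet, and each had a difference of −0.73. The Ckap2l region also lists Il1a and Gm14023.

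Counting error left few single regions clear of the limit. In 24 regions the whole counting interval lay past 1.5-fold, 10 on the higher and 14 on the lower side. The higher ones lay inside Trim9 (1.23), Tmem63c (1.20), Tnrc6b (1.16) and Nav2 (0.97), among others, and in these 4 between 4835 and 384026 bases past the start. The Nav2 region (chromosome 7, 49339600 to 49346599) had 5.35 in TAC and 4.00 in sham on the BCAA-free diet, and 4.19 in TAC and 6.995 in sham on the control diet. The lower ones included Tpx2, the monocyte chemokine gene Ccl8 (−1.18, −1.71 to −0.64), Dennd1c (−1.08) and Usp48 (−1.07), all named after their values were seen. Ccl8 had 4.35 in TAC and 7.14 in sham on the BCAA-free diet, and 6.35 in TAC and 3.94 in sham on the control diet, a crossed pattern unlike that of the macrophage list. The longest of the 14 lower regions was one of 14000 bases in the matrix gene Tnxb (chromosome 17, 34687800 to 34701799), with 8.04 in TAC and 11.8 in sham on the BCAA-free diet, and 10.3 in TAC and 8.07 in sham on the control diet, a difference of −0.82 (−1.03 to −0.61).

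Genes listed with several regions show whether neighbouring regions went together. Of 782 genes with at least 5 regions, all regions lay above the median difference of all regions in 61 and none in 53. The genes named here are those with the 5 highest and 5 lowest medians over their regions, a rule chosen after their values were seen. The highest were Trdn, which encodes the calcium release protein triadin, Esrrg, a nuclear receptor gene of oxidative metabolism, Stk32b, Arhgap20 and the adenosine kinase gene Adk. Esrrg had 13 regions over chromosome 1, from 187607800 to 188058799. Its TAC ratios ran from −0.70 to 0.01 on the BCAA-free diet and from −1.06 to −0.22 on the control diet, and all 13 differences were above the median of all regions. In Trdn all 5 control diet ratios lay between −0.95 and −0.51, and the differences ran from 0.03 to 0.91.

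The lowest were Svep1, a matrix and adhesion protein gene, the transcription factor gene Mef2a, Anks1b, the thromboxane synthase gene Tbxas1 and Sntg1. Svep1 had 7 regions, with TAC ratios below 0 in 6 on the BCAA-free diet and in 1 on the control diet. Tbxas1, which macrophages and platelets use, had a gain on both diets in 5 of 6 regions, and all 6 differences were below 0 (−0.90 to −0.01). In Mef2a the differences ran from −1.10 to 0.13, and 1 of 5 was above the median of all regions.

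**Figure D5:**
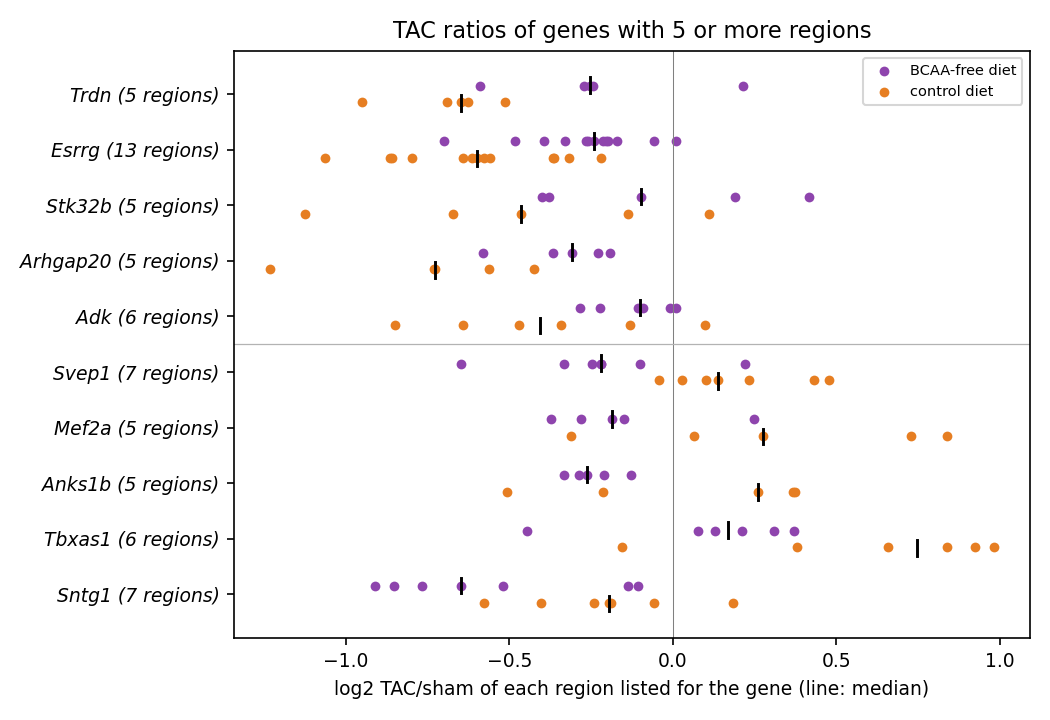
TAC ratio (log2 TAC/sham, x axis) of every region listed for the 5 genes with the highest (top) and the 5 with the lowest (bottom) median difference; purple is the BCAA-free and orange the control diet, and black lines are medians. In the top genes the BCAA-free medians lie nearer to 0 than the control medians, and in Svep1 the diets fall mostly on opposite sides of 0.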

How the data were processed

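The authors deposited 1 table of merged peak regions. Per the file headers, its signal columns hold the mean and the maximum coverage of a region in every library, beside a peak call. Log2 ratios and tag numbers of library pairs were deposited too, per the file headers, which served only to check that tags equal signal times region span over 224. That relation gives the counting intervals (95%, delta method). The submitters' processing notes name BWA, MACS2 and mm10, with neither versions nor roles. Neither scaling between libraries nor an input library is given in the sources used here.

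TAC ratios were computed as log2((TAC + 1)/(sham + 1)) per diet, without a filter. The log2 scale with a pseudocount of 1 understates ratios of low regions. With 1 library per group no test was possible. Regions shared by genes were kept. Gene lists (27), the 1.5-fold rule and the members were chosen with earlier results of these data known, so that patterns of lists are no independent support. Named were the 10 highest and 10 lowest differences, and the 5 at each end of the mean ratio or largest in it at equal response, among genes with a region centred within 2500 bases of the start and a signal over 8.60 (the median). The 2 highest and 2 lowest per list and 12 fixed genes were added. Some selected genes are not reported here, and the other examples were picked with their values known. Of 17640 gene names, 17041 matched RefSeq (GRCm38.p6). Steps were checked on simulated libraries. Python 3.11.15, pandas 2.3.3, NumPy 2.4.6, SciPy 1.17.1 and matplotlib 3.10.9 were used. Alternatives are given in the closing section.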

Additional observations from a re-analysis of the deposited data

Results flagged for a closer look

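For 13 of the genes and single regions named here, the TAC ratio had opposite signs on the 2 diets, each ratio past its counting interval (a gene counts by the region nearest to its start). The difference was not tested in any of them, since each group had 1 library. Over all regions 470 (1.61%) did the same. Most named genes and regions were chosen by their difference or with their values known. Their number therefore cannot be compared with this share. In Cacnb2, a calcium channel subunit gene, the ratio was 0.27 on the BCAA-free diet and −0.23 on the control diet (difference 0.50). In Tbxa2r it was 0.19 on the BCAA-free diet and −0.34 on the control diet (0.53). In the Nav2 region it was 0.34 on the BCAA-free diet and −0.62 on the control diet (0.97). In the other 10 the signal was lower in TAC on the BCAA-free diet and higher on the control diet. Maoa had −0.41 on the BCAA-free diet and 0.35 on the control diet (difference −0.77), and Tpx2 −0.44 on the BCAA-free diet and 0.76 on the control diet (−1.20). Tcf21 had −0.13 on the BCAA-free diet and 0.35 on the control diet (−0.48), and Loxl2 −0.29 on the BCAA-free diet and 0.35 on the control diet (−0.64). Mmab had −0.32 on the BCAA-free diet and 0.32 on the control diet (−0.64), and Tek −0.17 on the BCAA-free diet and 0.12 on the control diet (−0.30). Tgfb2 had −0.12 on the BCAA-free diet and 0.24 on the control diet (−0.36), and Dcn −0.14 on the BCAA-free diet and 0.19 on the control diet (−0.33). The Ccl8 region had −0.60 on the BCAA-free diet and 0.57 on the control diet (−1.18), and the Tnxb region −0.50 on the BCAA-free diet and 0.32 on the control diet (−0.82).

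Past 1.5-fold in size on both diets, 11 regions had opposite TAC ratios. Of these, 2 were higher in TAC on the BCAA-free diet and lower on the control diet, and 9 the other way. They were 600 to 3000 bases long. This difference was not tested either.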

How the results depend on the processing

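No paired analysis was possible because each group had 1 library and the labels give no replicate numbers. Counts past 1.5-fold moved with most settings. The higher and lower counts were 997 and 1845 without a pseudocount, 97 and 141 with a pseudocount of 5, 2400 and 4115 with peak height, 132 and 244 in regions above the median signal and 76 and 185 in regions with a peak call in all 4 libraries. With the trend over signal removed they were 1111 and 602, and quantile normalisation gave 745 lower ones. The median difference of all regions was −0.0855 without a pseudocount, −0.0514 with 5, −0.0105 with equal library medians, −0.00647 after quantile normalisation, 0.0148 with the trend removed, −0.0887 with peak height and −0.0682 above the median signal. For all genes it was −0.0762, −0.0495, −0.00269, −0.00285, 0.0142 and −0.0863 in the same order up to peak height. The quotient of the SDs was 0.848 with peak height and moved little under the other settings.

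Of 260 list medians under other settings, 232 stayed within the order-statistic interval of the median over the list's genes. With equal library medians, oxidative phosphorylation had 0.13, BCAA catabolism 0.17, histone acylation 0.0127 and immediate early genes −0.0201. After quantile normalisation, BCAA catabolism had 0.17, histone acylation 0.0155, macrophage genes −0.15 and immediate early genes −0.0356. With the trend removed, the medians were 0.14 for oxidative phosphorylation, 0.19 for BCAA catabolism, 0.0305 for histone acylation, −0.14 for macrophage genes, −0.0206 for smooth muscle, −0.0114 for immediate early genes and 0.0248 for ribosomal proteins. With peak height they were −0.15 for the intercalated disc, −0.0456 for fatty acid oxidation, 0.21 for oxidative phosphorylation, 0.018 for BCAA catabolism, −0.14 for macrophage genes, −0.27 for lymphocytes, −0.33 for smooth muscle, −0.46 for the cell cycle, −0.14 for immediate early genes, −0.26 for skeletal muscle and −0.31 for liver and neuron genes. With genes alone in their region, the sarcomere had 0.0421, oxidative phosphorylation 0.0164 and mTORC1 0.17. The sarcomere, calcium, cardiac transcription factor, oxidative phosphorylation, BCAA catabolism and endothelial lists were above the median of all genes in all 11 settings. So were the fetal, fatty acid oxidation, tricarboxylic acid cycle, glycolysis, amino acid starvation and histone acylation lists. The macrophage, fibroblast, matrix, cell cycle and interferon-stimulated lists were above it in 0 of 11. The lymphocyte list was above it in 0 of 9 settings, immediate early genes in 0 of 10 and liver and neuron genes in 0 of 8.

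Of 109 named genes, 29 changed sign under at least 1 other setting, 2 of them from past 1.5-fold: Mcts1 was 0.0069 with peak height, and Tpx2 was 0.0732 with its region of highest signal. The cause was not tested. Depth limits short regions most, where a difference of 1.5-fold is often within counting error.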
